A study of Homo sapiens with 6 samples.

Results

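MicroRNAs that carry the overlapping seeds of the miR-15/16 group and of miR-103 and miR-107 were followed in small extracellular vesicles (EVs) released by tumour spheroids. The 5 members were hsa-miR-15a-5p, hsa-miR-15b-5p, hsa-miR-16-5p, hsa-miR-103a-3p and hsa-miR-107. They were picked by name from the 471 rows of the miRNA read count table, all 5 had a row of their own, and none stood in a row of joined names. The spheroids were grown from Cal27 cells, a human line of oral squamous carcinoma labelled as squamous epithelial, and EVs came from day 14 medium. EVsoft (labelled Soft ECM) came from spheroids on 3 mg/mL Matrigel and EVstiff (labelled Stiff ECM) from spheroids on 12 mg/mL Matrigel, with 3 libraries each and no other treatment named. Matrigel is a basement membrane extract of a mouse tumour, so stiffness and the amount of this extract changed together and cannot be told apart, and all results concern 1 cell line. EVs were trapped from the medium by an electric field at a glass micropipette tip (insulator-based dielectrophoresis). According to the methods, replicates were independent isolations from separate cultures.

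A miRNA recognises its targets mainly through its seed, bases 2 to 8 from the 5′ end. miR-15 and miR-16 are known as brakes on the cell cycle and on survival, acting on cyclin D1, cyclin E1 and the anti-apoptotic protein BCL2, and the hairpin pair on chromosome 13 is often lost in chronic lymphocytic leukaemia. miR-103 and miR-107 are transcribed from introns of the pantothenate kinase genes, which serve coenzyme A synthesis, and are known for targeting DICER1 and for a role in insulin sensitivity. miR-16-5p is among the most widely expressed miRNAs and is abundant in blood cells and serum.

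The mature sequences are shown because they define the seed groups, and because miR-103a-3p and miR-107 are nearly the same molecule. They were taken from RefSeq on GRCh38.p14, where all 5 members were matched, with the seed in capitals.
miR-15a-5p: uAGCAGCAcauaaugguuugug
miR-15b-5p: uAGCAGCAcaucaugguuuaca
miR-16-5p: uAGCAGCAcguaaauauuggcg
miR-103a-3p: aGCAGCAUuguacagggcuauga
miR-107: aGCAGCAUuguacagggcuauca

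The seeds of the groups share the 6 bases GCAGCA, which start at base 3 of miR-16-5p and at base 2 of miR-107. Over the whole molecules the run AGCAGCA is common to all 5. Only 11 of 2370 mature names in the reference (0.464%) begin with AGCAGC at base 1 or base 2. Within the miR-15/16 group, miR-15a-5p and miR-15b-5p had the same base at 18 of 22 positions, and miR-15a-5p and miR-16-5p at 16 of 22. miR-103a-3p and miR-107 differed by the single substitution G22C, counted from 1 at the 5′ end of miR-103a-3p, so that their first 21 bases are identical. A read that ends before base 22 fits both names, and how the counting assigned such reads is not given in the sources used here. Values for this pair are therefore uncertain in their division, and their sum is given beside them.

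The members come from 7 hairpins at 5 places in the genome, all on GRCh38 and annotated with GENCODE 44. MIR15A (chr13:50049119-50049201, minus strand) and MIR16-1 (chr13:50048973-50049061, minus strand) lie 57 bases apart in the lncRNA DLEU2, where MIR15A overlapped an exon of 8 of the 23 transcripts that cover it and MIR16-1 lay in introns. MIR15B (chr3:160404588-160404685, plus strand) and MIR16-2 (chr3:160404745-160404825, plus strand) lie 59 bases apart in introns of SMC4, which encodes a condensin subunit. MIR103A1 (chr5:168560896-168560973, minus strand), MIR103A2 (chr20:3917494-3917571, plus strand) and MIR107 (chr10:89592747-89592827, minus strand) lie in introns of PANK3, PANK2 and PANK1. Because MIR16-1 and MIR16-2 give the same miR-16-5p, and MIR103A1 and MIR103A2 the same miR-103a-3p, the counts do not tell these loci apart.

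Total miRNA reads ranged from 39211 to 66345 in EVsoft and from 28688 to 30685 in EVstiff, so that every EVsoft library was deeper than every EVstiff library. Levels are given as CPM, reads relative to the TMM-scaled size of the library, in which 1 read was worth 14.9 to 36.0 CPM depending on the library. Intervals are 95% Wilson intervals of a share of reads, and a count of 0 allows up to 3 counts; both cover counting error only. Of the markers chosen for epithelium, 7 of 7 were present, at a summed 61977 to 71895 CPM in EVsoft and 53725 to 55336 CPM in EVstiff. Of the 6 tested, miR-200c-3p, miR-200a-3p and miR-200b-3p were called lower in EVstiff by the test described below, which called 19 of all 105 miRNAs (18.1%). The others were not called, with log2 fold changes of -0.76 for miR-429, 0.20 for miR-205-5p and 1.21 for miR-203a-3p. Of 8 markers of blood cells and serum, 6 were present, at a summed 3224 to 5892 CPM in EVsoft and 6828 to 9560 CPM in EVstiff. Of the 2 tested, miR-122-5p was called higher in EVstiff, with means of 3378 CPM in EVsoft and 6857 CPM in EVstiff. The other, miR-486-5p, was not called, with a log2 fold change of 0.10 and means of 733 CPM in EVsoft and 772 CPM in EVstiff. Of 7 markers of stroma and muscle, 4 were present, at 194 to 1077 CPM in EVsoft and 500 to 721 CPM in EVstiff. The part of these differences in the results below was not tested.

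All members together held a small share of the EV miRNA reads. Shares and ranks are of reads assigned to each name, and whether library preparation or counting lowered names with these 5′ bases was not tested. Their reads summed to 81, 58 and 84 in the EVsoft libraries and to 25, 16 and 42 in the EVstiff libraries, which was 0.177%, 0.148% and 0.127% of the miRNA reads in EVsoft and 0.0815%, 0.0558% and 0.141% in EVstiff. The third EVstiff library lay within the EVsoft range, so the groups overlapped. Counts relative to a library give neither the number of vesicles nor the number of copies in each. By mean share of reads over the 6 libraries, miR-103a-3p ranked 86th and miR-16-5p 98th of 471 names, followed by miR-107 (179th), miR-15b-5p (198th) and miR-15a-5p (444th).

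In EVsoft the order of levels was miR-103a-3p (780 ± 148 CPM, SD, n = 3), miR-16-5p (552 ± 124 CPM), miR-107 (123 ± 30.1 CPM), miR-15b-5p (27.2 ± 30.2 CPM) and miR-15a-5p (4.98 ± 8.62 CPM). In EVstiff miR-103a-3p (514 ± 217 CPM) and miR-16-5p (380 ± 299 CPM) again came first, and miR-15b-5p (68.4 ± 66.7 CPM) stood above miR-107 (12.0 ± 20.8 CPM), with no read of miR-15a-5p. In EVsoft miR-103a-3p was above miR-16-5p in every library, and miR-15b-5p and miR-15a-5p were closer than their spread. In EVstiff miR-103a-3p and miR-16-5p were closer than their spread, as were miR-15b-5p and miR-107. Of the members, 2 passed the filter on low counts, miR-103a-3p and miR-16-5p, and 3 did not. The filter asks for 286 CPM in at least 3 libraries and 15 reads in all, so a miRNA that is high in 1 group can pass it through that group alone.

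**Figure D1:**
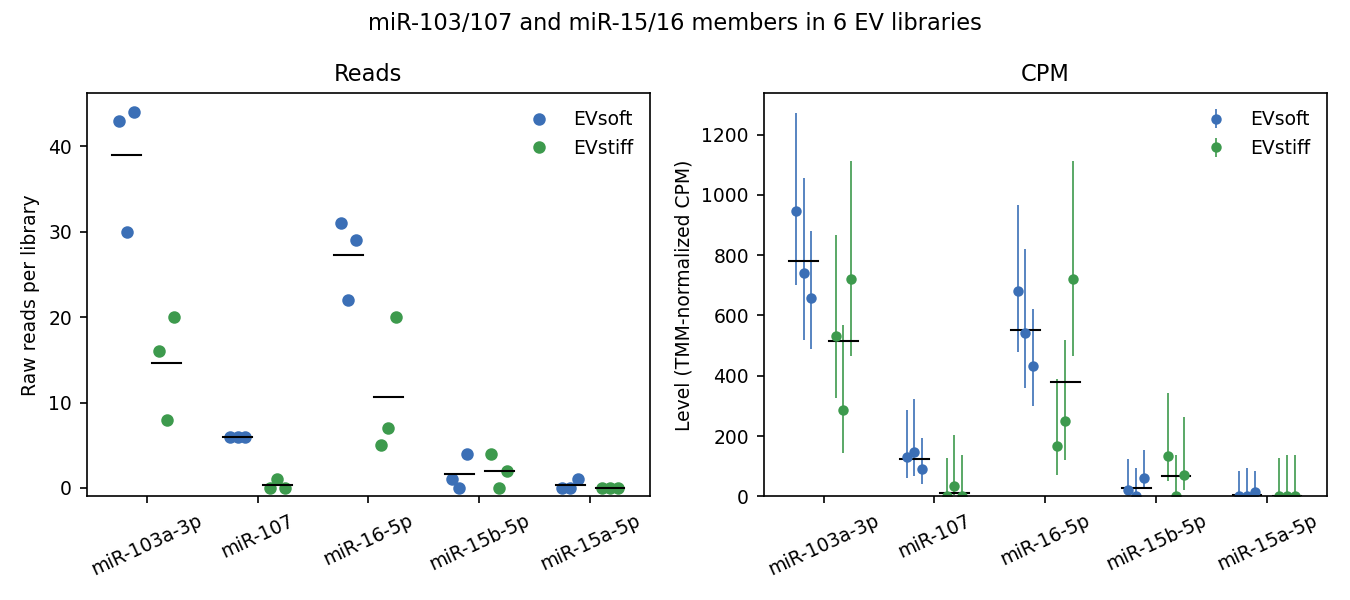
Reads (left) and TMM-normalized CPM (right) of the 5 members in each library, with EVsoft in blue, EVstiff in green, black bars for group means and vertical lines for 95% Wilson intervals. The reads of miR-103a-3p reached 44 and those of miR-16-5p 31, while miR-107 had 6 reads in every EVsoft library and at most 1 in EVstiff.

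Neither of the 2 members that could be tested was called different between soft and stiff matrix. Of all 105 miRNAs tested, 19 were called (18.1%), against 0 of the 2 members tested. A miRNA was called where its log2 fold change passed 0.58 in either direction with an edgeR quasi-likelihood p, adjusted by Benjamini-Hochberg over all 105, of 0.05 or less. The 19 split into 11 higher and 8 lower in EVstiff. Scaling by library size alone gave 8 higher and 11 lower calls, and how many names both settings shared was not counted. Unadjusted, the p of the 2 members were 0.134 for miR-103a-3p and 0.306 for miR-16-5p (edgeR).

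The most abundant member, miR-103a-3p, had 43, 30 and 44 reads in the EVsoft libraries and 16, 8 and 20 in the EVstiff libraries. These were 945, 740 and 657 CPM in EVsoft and 533, 288 and 721 CPM in EVstiff. The third EVstiff library lay above the lowest EVsoft library, and the second was the lowest of all 6. The log2 fold change of EVstiff over EVsoft was -0.59 (standard error 0.36, 95% interval -1.40 to 0.22, edgeR adjusted p = 0.242). The interval holds 0 as well as values beyond the threshold of 0.58, so the fit shows neither a difference nor its absence. The value was -0.30 without the second EVstiff library and -0.90 without the third, and neither was called.

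miR-16-5p was read 31, 22 and 29 times in EVsoft and 5, 7 and 20 times in EVstiff. Its levels were 681, 542 and 433 CPM in EVsoft and 167, 252 and 721 CPM in EVstiff. The third EVstiff library exceeded every EVsoft library, while the other two lay below all of them. In shares of reads, the interval of the third EVstiff library (0.0436% to 0.104%) did not touch that of the first (0.00696% to 0.0381%). The interval of the second (0.0118% to 0.0504%) overlapped both. The SD of its log2 CPM was 0.95 in EVstiff, where the median over the 105 miRNAs was 0.23, and 0.30 in EVsoft, where the median was 0.19. The median covers miRNAs with many more reads, and the part of counting error in this spread was not tested. At the nearest EVstiff levels below and above, the SD in EVstiff was 0.53 for miR-30e-5p (359 CPM) and 0.66 for miR-484 (403 CPM). At somewhat lower levels it was 0.90 for miR-17-5p (312 CPM) and 0.21 for miR-3615 (270 CPM). The log2 fold change of miR-16-5p was -0.54 (standard error 0.50, 95% interval -1.64 to 0.57, edgeR adjusted p = 0.440). Its size moved with each EVstiff library left out, to -0.19 without the first (edgeR adjusted p = 0.789), -0.30 without the second (adjusted p = 0.672) and -1.37 without the third (adjusted p = 0.0708).

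**Figure D2:**
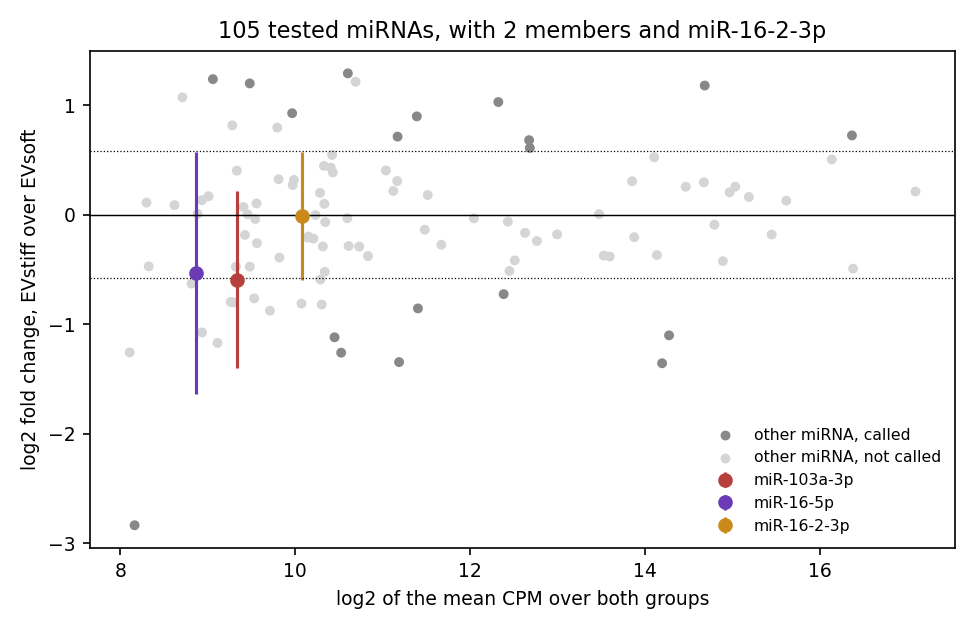
Fold change of EVstiff over EVsoft (log2) against level (log2 of the mean CPM) for the 105 miRNAs tested, with called miRNAs in dark grey, dotted lines at the threshold of 0.58 and 95% intervals on 3 points. miR-103a-3p at -0.59 and miR-16-5p at -0.54 have intervals that cross 0, and miR-16-2-3p lies at -0.01.

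The median log2 fold change of the 2 tested members was -0.56, beside -0.04 over all 105. Of the 105, 57 (54.3%) had a value below 0. When raw reads were compared as if all libraries had the same size, miR-103a-3p changed by -1.40 (adjusted p = 0.0118) and miR-16-5p by -1.35 (adjusted p = 0.0396), and both were called. The median of all miRNAs was then -0.89, so both values lay about as far below it as with TMM scaling. In that comparison 57 of the 105 miRNAs were called, all lower in EVstiff.

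**Figure D3:**
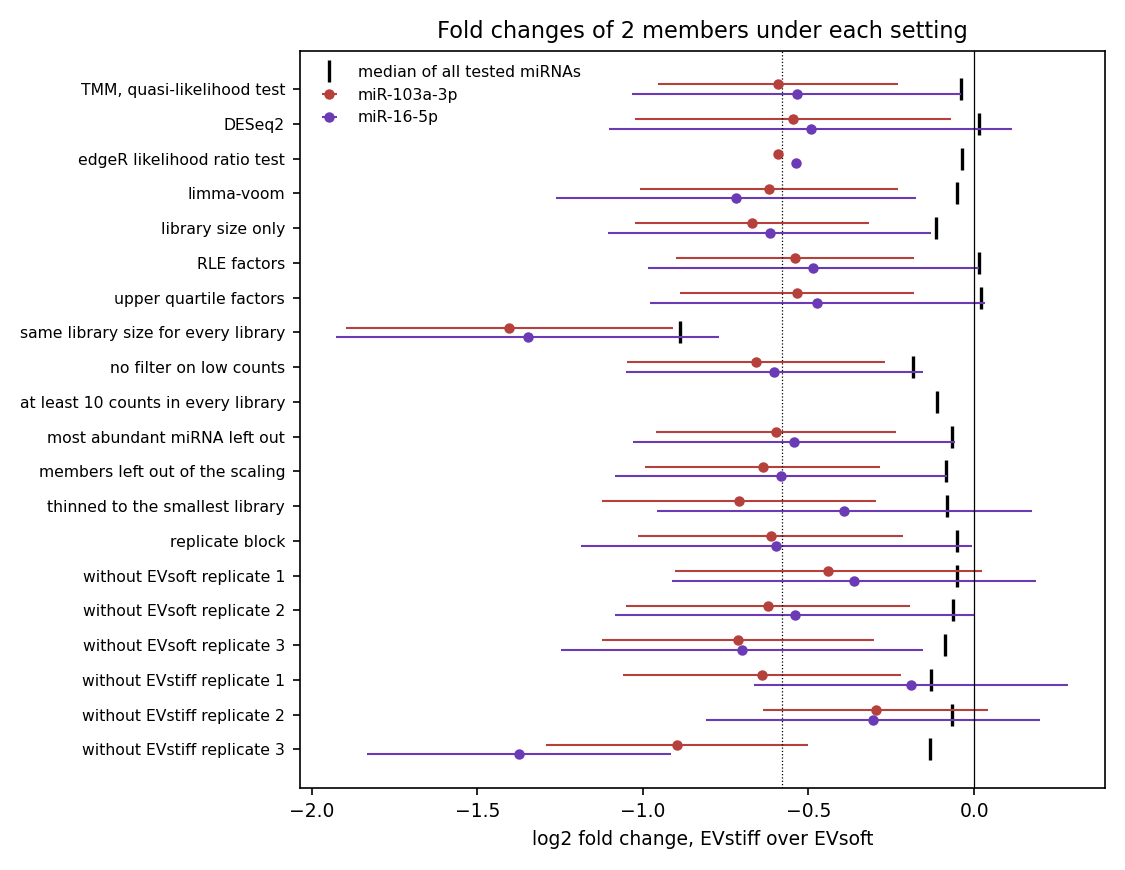
Log2 fold changes of miR-103a-3p (red) and miR-16-5p (purple) under each test, scaling, filter and left-out library, with standard errors as horizontal lines where the test gives one a dotted line at the threshold for a fall and black ticks at the median of all miRNAs tested. Every value lies below 0, from -0.30 to -1.40 for miR-103a-3p and from -0.19 to -1.37 for miR-16-5p, and at 10 counts in every library neither member was tested.

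miR-107 had the same 6 reads in each EVsoft library and 0, 1 and 0 reads in the EVstiff libraries. In CPM these were 132, 148 and 89.6 in EVsoft and 0, 35.9 and 0 in EVstiff, with no overlap between the groups. Among the 464 miRNAs with a read, 41 (8.84%) were lower in EVstiff without overlap. Among the 105 with enough reads to pass the filter, 26 were. Of the 5 members, miR-107 was the 1 to be so. It did not pass the filter and has no value in the test above. Over pooled reads (18 in EVsoft and 1 in EVstiff) the ratio of EVstiff to EVsoft was 0.0994, with an exact 95% interval from 0.00238 to 0.629 that covers counting error only and compares these libraries, not the conditions. In the fit without a filter, over 464 miRNAs, its log2 fold change was -3.12 (standard error 1.51, unadjusted p = 0.0388, edgeR adjusted p = 0.392), and it was not called. The limit that a count of 0 allows was 99.9 CPM in the first and 108 CPM in the third EVstiff library, which is above the 89.6 CPM of the third EVsoft library. Thinned to the smallest library, miR-107 kept 3, 5 and 4 reads in EVsoft and 0, 1 and 0 in EVstiff.

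The share of miR-107 in the reads of the pair needs no scaling between libraries. It was 12.2%, 16.7% and 12.0% in EVsoft and 0%, 11.1% and 0% in EVstiff, without overlap (two-sided exact permutation p = 0.1, which is the smallest that 3 against 3 allow, adjusted p = 0.3 over the 3 within-library values chosen after the counts were seen). The EVstiff shares rest on 16, 9 and 20 reads of the pair. A count of 0 there allows up to 18.8% and 15.0% at 3 counts, and up to 20.6% and 16.8% by the exact 95% binomial interval. These limits reach into the range of the EVsoft shares, so at this depth the counts of 0 do not settle whether the share was lower in EVstiff. The permutation test cannot decide it either, since with 3 against 3 libraries its p cannot fall below 0.1 at any depth. The planned measure of the pair, the log2 ratio of miR-103a-3p to miR-107 with 0.5 added to each count, did overlap between the groups. It was 2.74, 2.23 and 2.78 in EVsoft and 5.04, 2.50 and 5.36 in EVstiff. Its exact permutation test gave a two-sided p = 0.3 (adjusted p = 0.4 over the 4 planned ratios within seed groups). With the reads of miR-103a-3p and miR-107 added into 1 row, the sums were 49, 36 and 50 in EVsoft and 16, 9 and 20 in EVstiff. In CPM the sum was 1077, 887 and 746 in EVsoft and 533, 323 and 721 in EVstiff, where the highest EVstiff library came just under the lowest EVsoft library. The fit of the summed row gave a log2 fold change of -0.77 (standard error 0.34, edgeR adjusted p = 0.118), which was not called.

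miR-15b-5p had 1, 0 and 4 reads in EVsoft and 4, 0 and 2 in EVstiff, or at most 59.7 CPM in EVsoft and at most 133 CPM in EVstiff. The groups overlapped fully. miR-15a-5p had 1 read in all, in the third EVsoft library. A count of 0 in the first EVstiff library, of 30685 reads, allows a share of up to 0.00978%. Both sat near the limit of detection in each group, so no fold change is given. The reads of the miR-15/16 seed group were thus mostly miR-16-5p, with 114 of 126 reads over the 6 libraries.

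Between the seed groups, the miR-15/16 reads summed to 32, 22 and 34 in EVsoft and to 9, 7 and 22 in EVstiff, beside the 49, 36 and 50 and the 16, 9 and 20 of miR-103 and miR-107. The log2 ratio of the first group to the second was -0.61, -0.71 and -0.56 in EVsoft and -0.83, -0.36 and 0.14 in EVstiff. The EVstiff libraries fell on both sides of the EVsoft ones. The means were -0.63 ± 0.08 (SD, n = 3) and -0.35 ± 0.48 (SD, n = 3), and the difference of 0.28 was smaller than the spread in EVstiff. It was 0.03 without the third EVstiff library, 0.51 without the first and 0.54 after thinning to the smallest library. As a sum over members chosen by name, this ratio was not tested. For the 2 members read in every library, the log2 ratio of miR-103a-3p to miR-16-5p was 0.51 ± 0.08 (SD, n = 3) in EVsoft and 0.62 ± 0.92 (SD, n = 3) in EVstiff (exact permutation test, two-sided p = 1). The difference of 0.12 turned to -0.41 without the first EVstiff library and to -0.08 after thinning. In the third EVstiff library both had 20 reads. Ratios within each seed group needed 0.5 added to every count because of counts of 0, and the smallest p among these 4 pairs was 0.2 (exact permutation test, two-sided, adjusted p = 0.4).

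**Figure D4:**
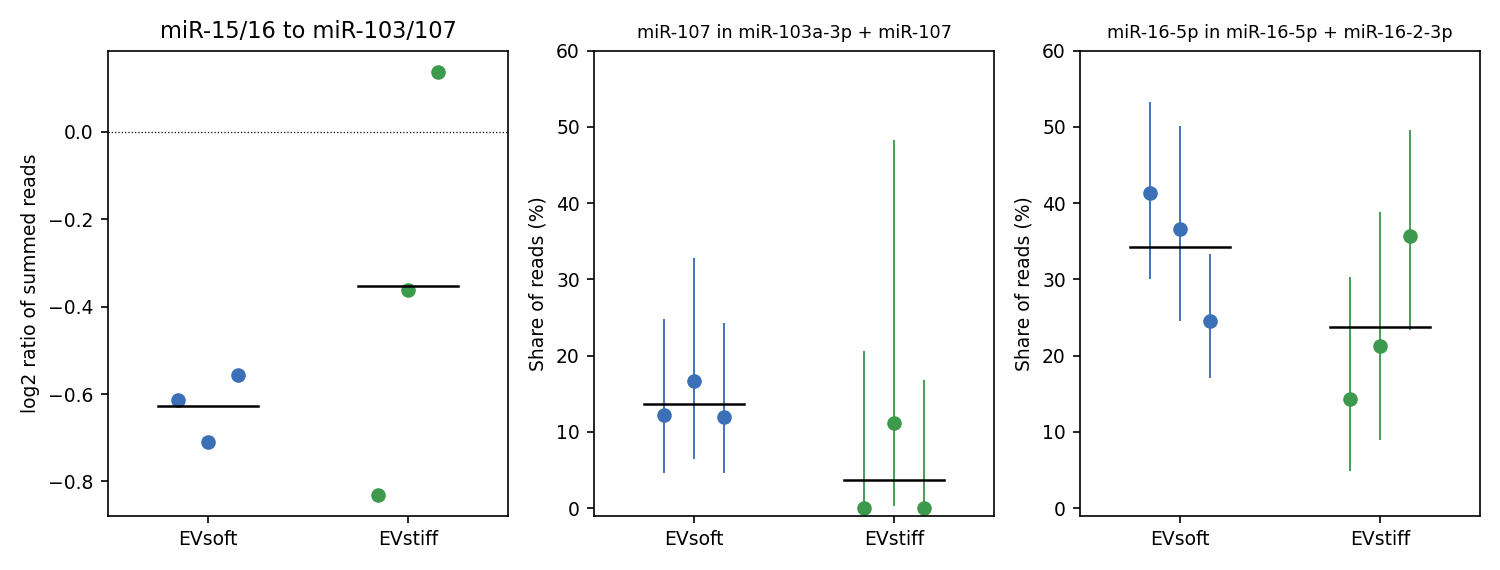
Values set within each library, with EVsoft in blue, EVstiff in green and black bars for group means: the log2 ratio of summed miR-15/16 reads to those of miR-103 and miR-107 (left), the share of miR-107 in its pair with miR-103a-3p (middle) and the share of miR-16-5p among the reads of both arms (right), the last 2 with exact 95% binomial intervals. The ratio spans -0.83 to 0.14 in EVstiff around the tight EVsoft values, and the intervals of both shares overlap between the groups.

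Of the 7 other arms of the member hairpins, 2 had a row of their own, miR-16-2-3p and miR-15b-3p (1 read), of which 1 was tested and 0 called. miR-16-2-3p is the opposite arm of MIR16-2 and is usually the minor product of the hairpin. The hairpin is printed with both arms in capitals, miR-16-5p first, because the arm that was read more was the second.
MIR16-2: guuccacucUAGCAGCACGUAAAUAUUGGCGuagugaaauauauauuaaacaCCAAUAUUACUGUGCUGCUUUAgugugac

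miR-16-2-3p had 44, 38 and 89 reads in EVsoft and 30, 26 and 36 in EVstiff, more than miR-16-5p in each of the 6 libraries. It ranked 69th of 471 names. miR-16-5p made up 41.3%, 36.7% and 24.6% of the reads of both arms in EVsoft, and 14.3%, 21.2% and 35.7% in EVstiff. The groups overlapped (exact permutation test, two-sided p = 0.2, adjusted p = 0.3 over the same 3 values). The share holds miR-16-5p of both loci against the opposite arm of 1 of them. The level of miR-16-2-3p was 1077 ± 218 CPM (SD, n = 3) in EVsoft and 1077 ± 194 CPM (SD, n = 3) in EVstiff, and EVstiff differed from EVsoft by -0.01 on the log2 scale (standard error 0.26, 95% interval -0.60 to 0.57, edgeR adjusted p = 0.988). The SD of its log2 CPM in EVstiff was 0.24, against 0.95 for miR-16-5p, which had only 5, 7 and 20 reads there. The part of counting error in this contrast was not tested.

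Beyond the members, 6 names in the reference begin with the same AGCAGC, and 2 of these had a row of their own. miR-503-5p, whose seed is AGCAGCG, had 4, 19 and 3 reads in EVsoft and 1, 3 and 4 in EVstiff. It stood highest in the second EVsoft library and the groups overlapped. miR-424-5p had 1 read. miR-195-5p, miR-497-5p, miR-646 and miR-6838-5p had no row of their own. Neither of the 2 passed the filter. Of the 471 rows, 406 were matched to a mature sequence and could be searched. Among these, the 5 members held 306 of the 341 reads of names that begin this way (89.7%).

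The miRNAs whose pattern over the 6 libraries lay closest to a member were found by the root mean square difference in log2 CPM, each miRNA centred on its own mean. For miR-103a-3p these were miR-629-5p (0.22) and miR-1307-3p (0.26), with a median of 0.57 over all other miRNAs tested. For miR-16-5p they were miR-629-5p (0.37) and miR-155-5p (0.41), with a median of 0.72. The 2 members lay 0.45 apart. Of these 3 miRNAs, miR-155-5p was called, at -0.86 on the log2 scale (edgeR adjusted p = 0.0179), while miR-629-5p had -0.47 (adjusted p = 0.324) and miR-1307-3p -0.14 (adjusted p = 0.771). miR-107, miR-15a-5p and miR-15b-5p were not matched, with at most 6 reads in a library.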

How the data were processed

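Small RNA from EVs was sequenced in 3 EVsoft and 3 EVstiff libraries, grouped by their labels. The authors deposited raw read counts per miRNA, made with exceRpt for quality control and with RefSeq features for counting. The submitters' processing notes name hg38, and the aligner is not given in the sources used here. The members and lists were chosen with earlier results of these data known. The counts were fitted with edgeR 4.0.16 under R 4.3.3. The filter filterByExpr kept 105 miRNAs, which were scaled by TMM, tested by quasi-likelihood without a replicate block, and adjusted together by Benjamini-Hochberg. A standard error is the fold change divided by the square root of F. Single values were compared with exact permutation tests in scipy 1.17.1. The procedure was tested on simulated data. Alternatives were DESeq2 1.42.0, limma 3.58.1 (voom), edgeR's likelihood ratio test, other scalings and filters, thinning to 28688 reads, leaving out each library in turn, and a replicate block. The within-library shares, the ratio of miR-103a-3p to miR-16-5p and the pooled ratio of miR-107 were chosen after seeing the data. The 4 planned ratios within seed groups had no value without a pseudocount and were given 0.5. Members outside the filter were not matched for pattern, a departure from the rule for named miRNAs, which were the members, names that share their 5′ bases, the other arms, and the 2 closest patterns.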

Additional observations from a re-analysis of the deposited data

How the results depend on the processing

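Fold changes of miR-103a-3p and miR-16-5p stayed below 0 in each of the alternatives that gave a value, 19 and 18 in number, and neither was called except where all libraries were given 1 common size (-1.40 and -1.35), where 57 miRNAs were called in place of 19. That setting compares raw reads, and the EVstiff libraries held fewer. With at least 10 counts in every library no member was tested. Over the other alternatives the number of miRNAs called was between 13, without EVstiff replicate 1, and 27, with edgeR's likelihood ratio test. With the replicate block the values were -0.61 for miR-103a-3p (adjusted p = 0.298) and -0.60 for miR-16-5p (adjusted p = 0.494), with 16 miRNAs called. Whether same-numbered libraries belong together is not known. Within-group deviations of same-numbered libraries correlated at -0.13, 0.13 and -0.03, and those of differently numbered ones at -0.13 to 0.20. With 3 libraries in each group these values cannot decide it. The pooled ratio of miR-107 ranged from 0 to 0.153 when each library was left out in turn, and was 0 without the second EVstiff library, which holds its only EVstiff read. Leaving miR-16-5p out of its seed group left libraries with 0 reads and gave no ratio, and for miR-107, miR-15a-5p and miR-15b-5p the alternative tests and filters were not run beyond the fit without a filter. Depth limits all members, since the most read had 44 reads in a library, and so does the number of 3 libraries in each group.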

Other observations

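The X chromosome hairpin MIR424 gave a further case of an opposite arm read above the arm with the superfamily seed, chosen after its values were seen. The arms are shown with the seed in capitals.
miR-424-5p: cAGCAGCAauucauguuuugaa
miR-424-3p: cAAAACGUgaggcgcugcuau

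miR-424-3p had 6, 6 and 22 reads in EVsoft and 7, 6 and 3 reads in EVstiff, while miR-424-5p had 1 read in all. The levels of miR-424-3p were 203 ± 109 CPM (SD, n = 3) in EVsoft and 186 ± 67.7 CPM (SD, n = 3) in EVstiff and overlapped. miR-195-3p had 6 reads, all in the first EVsoft library, and its opposite arm had no row of its own. For MIR15B the order was the other way, with 11 reads of miR-15b-5p and 1 of miR-15b-3p.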
